A study of Bos taurus with 18 samples.

Results

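The SOX transcription factors analysed here are 7 genes, namely SOX9, SOX5, SOX6, SOX4, SOX8, SOX11 and SOX2, chosen by symbol from the 16989 genes counted in bovine mesenchymal stem cells (MSCs). All 7 have a line in every library. The cells came from the bone marrow of juvenile cattle. There are 17 clones, A to Q, each a population grown from a single cell, and 1 heterogeneous population that was not cloned. All were untreated and were expanded on tissue culture plastic in DMEM with FBS and antibiotics, and poly-adenylated RNA was taken at passage 1. How many animals the clones came from is not given in the sources used here. The sequencing was done to ask whether the transcriptome of the undifferentiated cells marks clones that will later deposit much cartilage-like matrix. The matrix values themselves are not analysed here.

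SOX proteins bind DNA through a shared domain, the HMG box, and bend it. In cartilage, SOX9 is the factor that commits mesenchymal cells to the chondrocyte lineage, and it switches on the genes of the cartilage matrix such as COL2A1 (type II collagen) and ACAN (aggrecan). SOX5 and SOX6 lack an activation domain of their own and help SOX9 to occupy the same enhancers, so that SOX9, SOX5 and SOX6 are known as the SOX trio. SOX8 and SOX10 are the nearest relatives of SOX9, SOX4 and SOX11 are related activators of progenitor cells, and SOX2 maintains pluripotent and neural stem cells.

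Each clone was sequenced once, and the clones were treated as independent samples. Since the number of animals is not given, some clones may share an animal, and any likeness from this was not tested. Nothing in the labels says how the cultures were handled separately, and the p-values below measure the spread between these clones. Reads assigned to genes numbered 11484812 to 18458157 per clone, with a median of 14193790, and 16092501 in the heterogeneous population. Levels are given in CPM, the reads of a gene scaled to the same total of reads on genes in every library. Gene lengths were not used, so a level can be compared between libraries but not between genes. A gene with 0 reads could still be present at up to 3 reads, which is 0.163 to 0.261 CPM in these libraries. Intervals and limits of this kind cover counting error only. In such bulk RNA, fewer cells expressing a gene and less of its RNA in each cell cannot be told apart.

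SOX9 was read in every clone and differed widely between them. Its level was lowest in clone M at 2.55 CPM (47 reads), had a median of 10.5 CPM, and was highest in clone O at 24.2 CPM (380 reads), which is a 9.49-fold range. From low to high the clones stood in the order M, E, F, D, B, K, J, I, H, A, G, Q, P, C, L, N and O. The 95% Poisson intervals of neighbouring clones in this order overlapped in all 16 pairs, so the order of neighbours is not resolved, while the ends are far apart. The standard deviation (SD) over the 17 clones was 1.09 on the scale of log2(CPM + 0.25), against 0.11 from counting error alone. Of the 11477 genes above 1 CPM in at least 1 clone, 94.5% had a smaller SD.

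SOX5 was lowest in clone E at 8.07 CPM (125 reads), with a median of 17.4 CPM. Its highest level, 49.6 CPM (683 reads), was in clone N, followed by clone Q at 33.4 CPM. The SD of its log2 level was 0.65 (0.085 from counting alone), and 81.6% of genes varied less. The partner gene SOX6 ranged from 3.98 CPM (55 reads) in clone I through a median of 11.2 CPM to 25.8 CPM (375 reads) in clone Q. Its log2 SD was 0.85 (0.10 from counting), larger than that of 89.4% of genes. The upper end of SOX6 was shared by clones Q, N, O, P and C, which lay between 22.3 and 25.8 CPM.

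SOX4 was lowest in clone F at 15.7 CPM (237 reads), had a median of 26.7 CPM and was highest in clone M at 78.8 CPM (1455 reads). Clone M, with the lowest SOX9 value, was thus the clone with the most SOX4. Clones E and F, next to it in SOX9 at 2.78 and 2.86 CPM, had the least SOX4, at 16.8 and 15.7 CPM. The log2 SD of SOX4 was 0.66, against 0.064 from counting. SOX11, the other gene of this pair of activators, had 0 reads in each of the 18 libraries.

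SOX8 was measured with few reads, from 1 read each in clones E and F to 36 in clones H and L, with a median of 10 reads (0.705 CPM). Clone L had the highest level, 2.57 CPM. SOX2 separated the clones into many with next to none and a few with more. Clone A had 0 reads, the median was 6 reads (0.435 CPM), and 5 clones reached 10 reads. These were clone O with 114 reads (7.25 CPM), clone C with 95 reads (6.72 CPM), clone P with 114 reads (6.58 CPM), clone J with 29 reads and clone N with 28 reads. Its log2 SD of 1.57 (0.26 from counting) was larger than that of 99.0% of genes. Mammalian SOX2 lies within a longer non-coding transcript, and reads of the 2 could not be separated here.

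**Figure D1:**
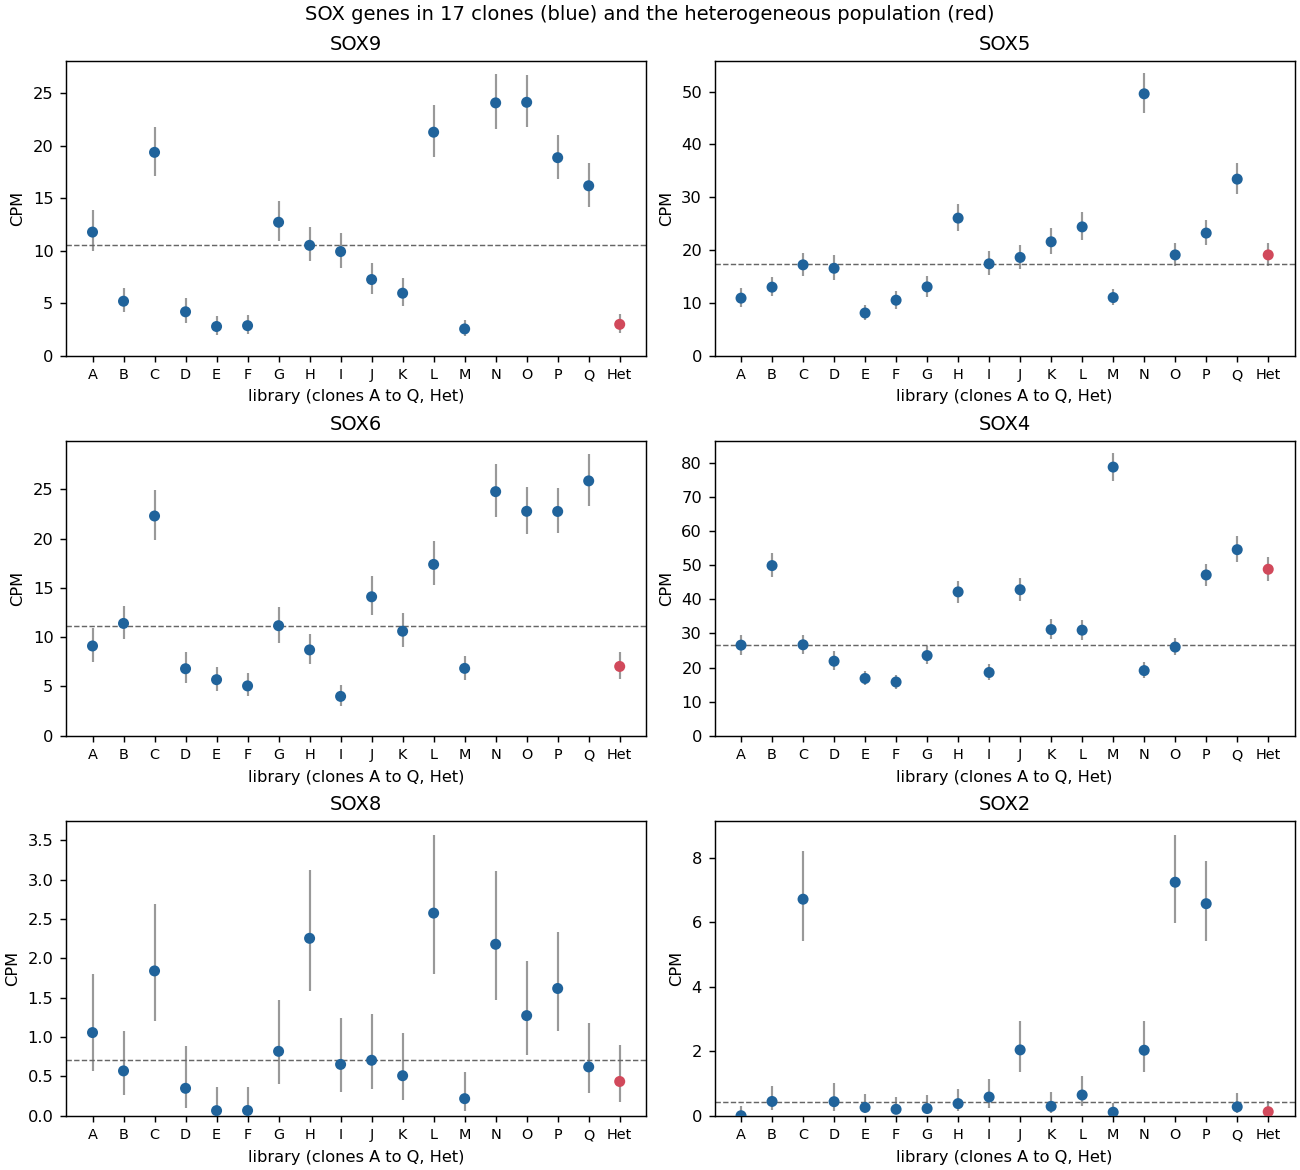
Level in CPM (vertical axis, starting at 0) of 6 SOX genes in clones A to Q (blue) and the heterogeneous population (red, Het); vertical lines are exact 95% Poisson intervals of the count and the dashed line is the median of the clones. SOX9 and SOX6 were high in clones C, L, N, O, P and Q, SOX5 was highest in N at 49.6 CPM, SOX4 in M at 78.8 CPM, and SOX2 in C, O and P.

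Beyond these genes, 12 of 13 other SOX family symbols looked for are in the files. SRY, SOX3 and SOX14 had 0 reads in every library, and SOX1, SOX7, SOX17, SOX18, SOX21 and SOX30 had at most 5 reads in any clone. Only SOX10, SOX13 and SOX15 reached 10 reads in a clone. SOX13, a relative of SOX5 and SOX6, was even across clones, from 48 to 137 reads with a log2 SD of 0.32. SOX15 had 8 to 26 reads.

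The line for SOX10 followed that for SOX9 almost exactly. SOX10, a factor of the neural crest and of Schwann cells, ranged from 0.797 CPM (12 reads) in clone F through a median of 6.03 CPM to 12.4 CPM (174 reads) in clone L. Its log2 level had a Pearson r of 0.976 with SOX9 over the 17 clones, the highest of the 10540 genes above 1 CPM in at least 9 clones. SOX10 made up 34.7% of the reads on the 2 lines (95% Wilson interval 33.3% to 36.1%), between 21.8% in clone F and 39.7% in clone M. That share did not vary between the 18 libraries beyond sampling noise (chi-square 0.892 per degree of freedom, p = 0.583). The same statistic was 13.5 for SOX9 with SOX6, 31.0 for SOX9 with SOX5 and 2.81 for SOX9 with SOX8. The RefSeq gene table of a later cattle assembly, ARS-UCD2.0, gives SOX9 as a synonym of its SOX10 gene. FOXD3, a marker of the neural crest, had 0 reads in every library. Whether some reads on the SOX10 line belong to SOX9 was not tested. With both lines summed, the range was 3.65 CPM in clone F to 36.4 CPM in clone N with a log2 SD of 1.12.

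The levels of the SOX trio were correlated over the clones, as were those of many other genes. By Pearson r with SOX9, SOX6 was in rank 694 and SOX5 in rank 1715 of 10540 genes. For SOX5, SOX6 was in rank 1505, so the likeness was not particular to the trio. Log2 levels of SOX9 and SOX6 had a Pearson r of 0.783 (two-sided permutation p = 0.00036) and a Spearman rho of 0.787 (p = 0.00026), and r was 0.751 without clones M and E, which lay farthest from the SOX9 median. SOX9 and SOX5 had an r of 0.692 (permutation p = 0.00212) and a rho of 0.674 (p = 0.00375), with an r of 0.571 without M and E. For SOX5 and SOX6 r was 0.667 (permutation p = 0.00343) and rho was 0.664 (p = 0.00483), with an r of 0.568 without clones N and E. SOX9 and its relative SOX8 had an r of 0.886 (permutation p = 1e-05, the smallest that 100000 resamples can give) and a rho of 0.855 (p = 6e-05), with an r of 0.843 without M and E.

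SOX4 did not follow SOX9. Their r was -0.0024 (permutation p = 0.993) and rho was 0.0245 (p = 0.93), and r was 0.287 when clone M alone was left out and 0.151 without M and E. In all, 7 pairs of genes were tested in this way, and p-values adjusted over all genes come from the fits described next. Pairs with SOX2 or SOX11 were not tested, because too few clones had 10 reads.

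**Figure D2:**
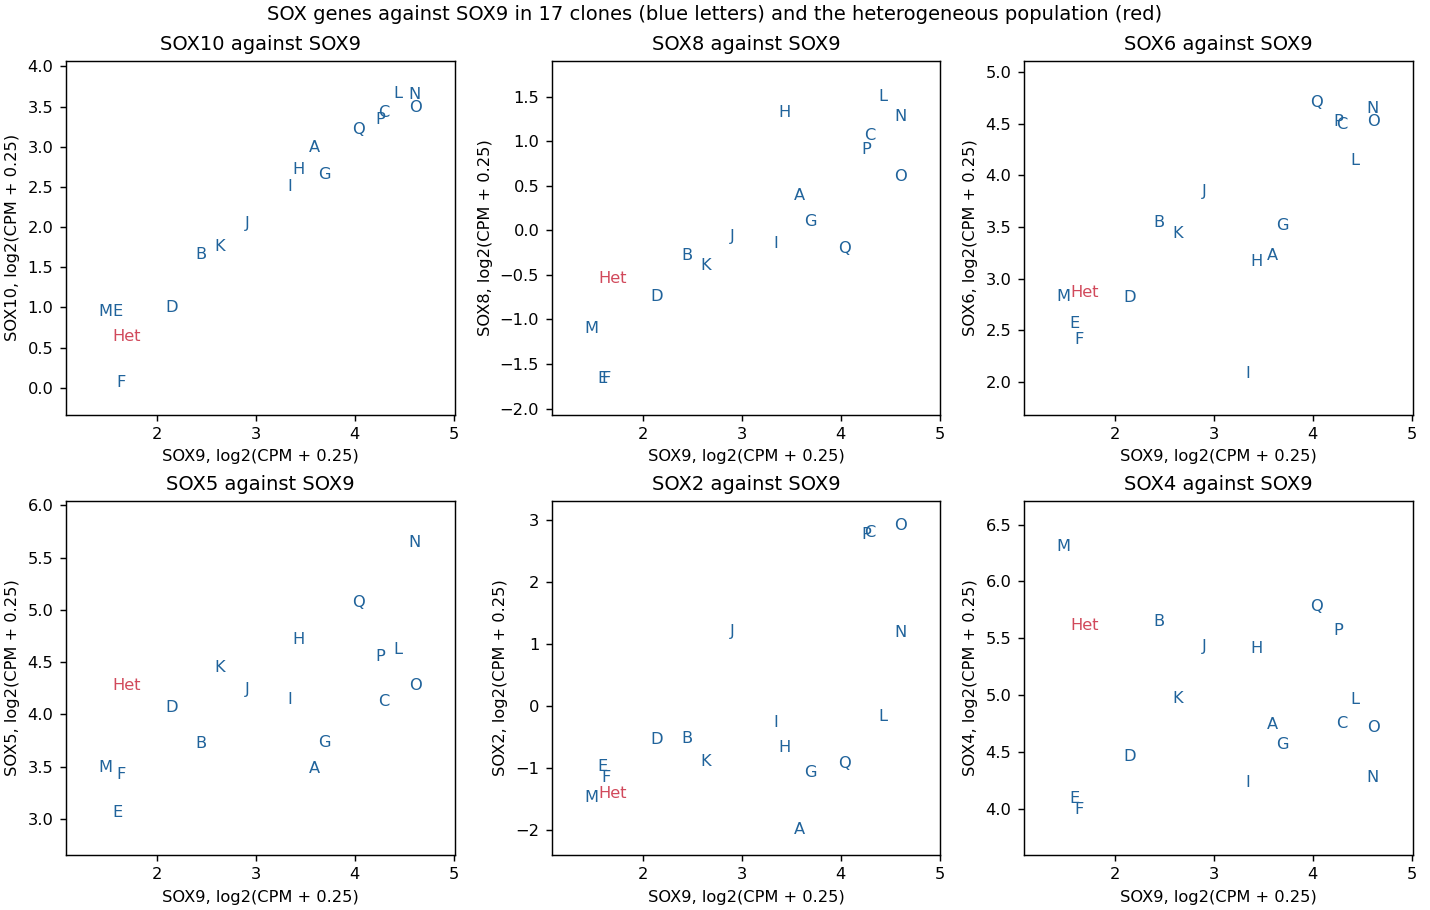
Log2(CPM + 0.25) of SOX10, SOX8, SOX6, SOX5, SOX2 and SOX4 (vertical axes) against SOX9 (horizontal axes); each letter is a clone and Het is the heterogeneous population. SOX10 lies close to a line with SOX9 (r = 0.976), SOX8 and SOX6 follow it more loosely (0.886 and 0.783), and SOX4 shows no trend (-0.0024).

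To see which genes moved with a SOX gene, the counts of every other gene were fitted on the log2 level of that SOX gene over the 17 clones with edgeR's quasi-likelihood test. A slope is the log2 change of a gene for each doubling of the SOX gene, given with its standard error (SE), and a gene was called at a Benjamini-Hochberg adjusted p under 0.05 over all genes tested. SOX9, SOX5, SOX6 and SOX4 had enough reads for such a fit. Of the genes tested, 27.0% were called in the fit on SOX9 (15.3% with a positive and 11.7% with a negative slope), 15.6% on SOX5 (8.62% and 6.96%) and 8.78% on SOX6 (5.02% and 3.76%). No gene was called on SOX4 (0% of 11346), although 1152 had an unadjusted p under 0.05 and DESeq2 called 71 (0.626%). Without clone N the fit on SOX5 called 646 genes in place of 1768, and without clone F the fit on SOX6 called 453 in place of 987. The fits use the same 17 clones and are not independent of each other.

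In the fit on SOX9, both partners of the trio were called with a positive slope. SOX6 rose by 0.61 ± 0.12 (SE, edgeR adjusted p = 0.00192) per doubling of SOX9, and SOX5 by 0.39 ± 0.11 (0.0155). SOX8, measured with few reads, rose by 1.12 ± 0.19 (0.000863). SOX2 had a slope of 1.54 ± 0.37 (0.00542), which rests on the 5 clones with 10 or more reads, since it did not pass the filter on low counts when any of clones C, J, N, O or P was left out. SOX4 had a slope of -0.18 ± 0.16 (0.441). The call of SOX5 was lost without clone E (adjusted p = 0.0522) or without clone N (0.0503). In the fit on SOX6, SOX9 had a slope of 0.82 ± 0.20 (0.018) and SOX5 one of 0.45 ± 0.14 (0.0488). SOX8 at 0.81 ± 0.33 (0.129) was not called. SOX2 had a slope of 1.94 ± 0.43 on SOX6 (0.0116, and 0.0566 with limma). It reached 10 reads in 5 clones only, and of these C, N, O and P were also among the highest in SOX6. In the fit on SOX5, SOX6 was called at 0.86 ± 0.26 (0.0326), and SOX9 at 0.97 ± 0.35 (0.0745) and SOX8 at 1.25 ± 0.47 (0.0788) were not. Leaving out 1 clone ended the call of SOX6 on SOX5 for clones E, F, M, N, P and Q (adjusted p = 0.0523 to 0.0959) and that of SOX5 on SOX6 for 14 of the 17 clones (0.0555 to 0.122). The latter stayed without clones C, H or I.

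Some cartilage genes known as targets of the SOX trio rose with each gene of the trio, namely ACAN, COMP, HAPLN1 and FGFR3. Of 27 such targets listed, 24 are in the files and 15 passed the filter on low counts. On SOX9, 7 of the 15 were called higher and 0 lower, with a median slope of 0.48, against 0.01 over all genes tested. On SOX5 it was 4 higher and 0 lower (median 0.64, all genes 0.02), on SOX6 8 higher and 0 lower (0.66, all genes 0.02), and on SOX4 none (0.01, all genes -0.0049). Of all genes tested, 15.3% were called higher on SOX9, 8.62% on SOX5, 5.02% on SOX6 and 0% on SOX4.

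ACAN, the core protein of the large cartilage proteoglycan, ranged from 19.5 CPM in clone H through a median of 117 CPM to 3032 CPM in clone N. It rose by 1.51 ± 0.32 per doubling of SOX9 (edgeR adjusted p = 0.00267), by 2.43 ± 0.66 per doubling of SOX5 (0.0182) and by 2.09 ± 0.34 per doubling of SOX6 (0.00192). By likeness, ACAN was in rank 45 of 10540 genes for SOX6 (r = 0.84) and in rank 1692 for SOX9 (r = 0.694, permutation p = 0.00258, rho = 0.73, p = 0.00116, and r = 0.619 without clones M and E). The highest ACAN levels were in clones N, O, Q, C and P, which were high in SOX6 and also in SOX9. The r values of ACAN with SOX6 and with SOX9 were not tested against each other.

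COL2A1 ranged from 19.4 CPM in clone L to 1287 CPM in clone O, with a median of 65.5 CPM. Its slope was 1.52 ± 0.33 on SOX9 (adjusted p = 0.00293) and 2.09 ± 0.40 on SOX6 (0.00518), and on SOX5 it was 1.01 ± 1.21 (0.631) and not called. Its r with SOX9 was 0.624 (permutation p = 0.00779, rho = 0.556, p = 0.0217) and 0.562 without clones M and E. COL9A2, a chain of type IX collagen, had the steepest slope of the list on SOX9, 2.45 ± 0.38 (0.000389), and on SOX6, 2.90 ± 0.49 (0.00245). Clone L is the exception among the clones with much SOX9: it had 21.3 CPM of SOX9 and the least COL2A1 of all clones.

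HAPLN1, the link protein that ties aggrecan to hyaluronan, was called in the fits on SOX9 (slope 1.03 ± 0.25), SOX5 (1.96 ± 0.34) and SOX6 (1.63 ± 0.21). FGFR3, a receptor that restrains chondrocyte division, was also called on SOX9 (1.22 ± 0.13), SOX5 (1.42 ± 0.39) and SOX6 (0.94 ± 0.27). WWP2, a ubiquitin ligase whose gene hosts a cartilage microRNA, was called on SOX9 (0.61 ± 0.07) and SOX6 (0.66 ± 0.12), and COL11A2, a chain of type XI collagen, on SOX6 (0.83 ± 0.18). The call of FGFR3 on SOX6 was lost in 9 of the 17 fits that left out 1 clone (C, D, E, F, M, N, O, P or Q), at adjusted p-values of 0.051 to 0.0842. Differences between the fits were not tested.

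COMP, a matrix protein of cartilage and tendon, was called in the 3 fits with slopes of 1.29 ± 0.45, 2.35 ± 0.47 and 1.69 ± 0.49, but its level came mostly from clones N (56.3 CPM) and Q (41.1 CPM), against at most 6.66 CPM in any of the others. Without clone N its adjusted p was 0.198 on SOX9, 0.0581 on SOX5 and 0.106 on SOX6. The calls of ACAN and FGFR3 on SOX5 were likewise lost without clone N (adjusted p = 0.127 and 0.185). COL11A1, in contrast, lay between 1682 and 6884 CPM and was called in none of the 4 fits.

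**Figure D3:**
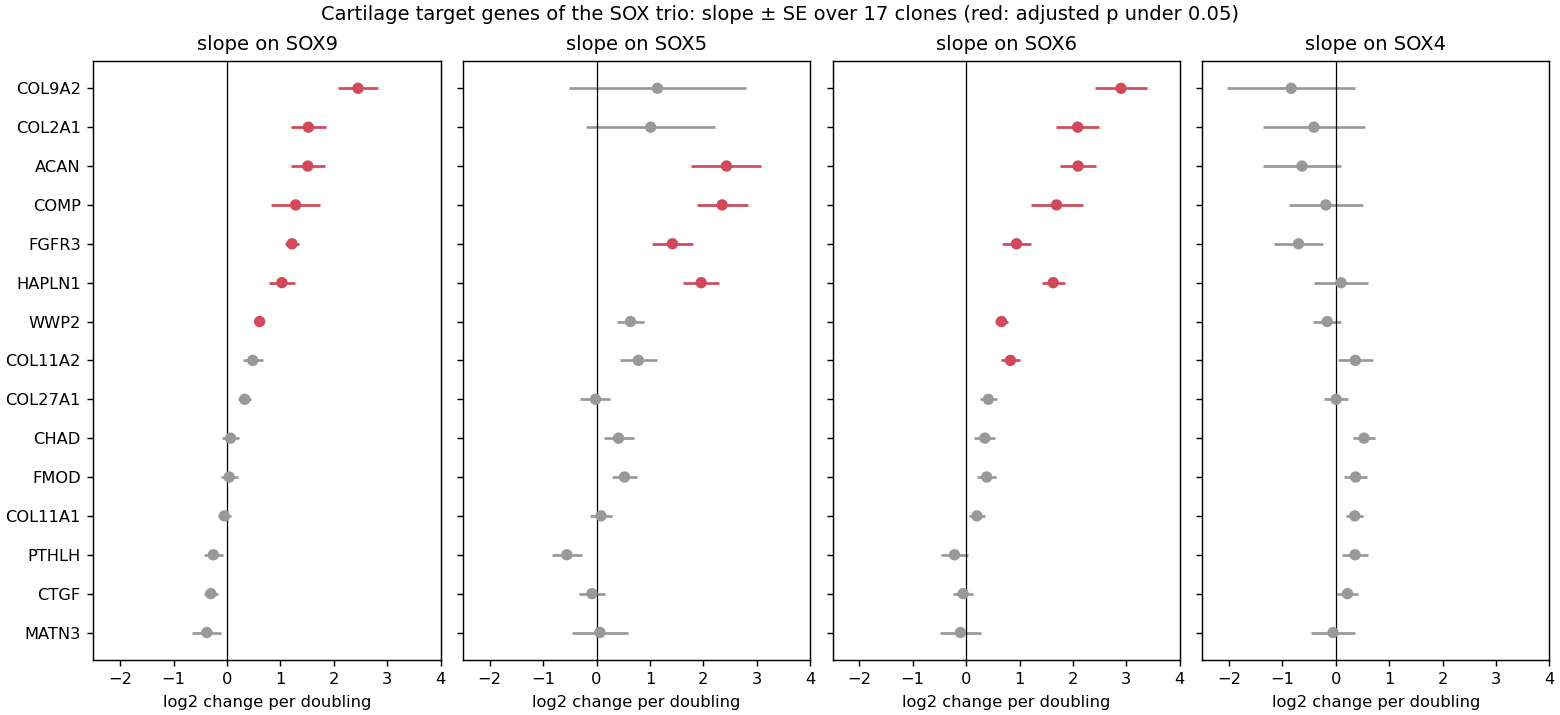
Slope (log2 change per doubling of the SOX gene, horizontal axis) with its SE of the 15 tested cartilage target genes (vertical axis, ordered by the slope on SOX9) in the fits on SOX9, SOX5, SOX6 and SOX4; red marks an adjusted p under 0.05. There are 7, 4, 8 and 0 red points in the 4 panels, all to the right of 0.

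The clones highest in particular SOX genes also carried particular cartilage genes at their highest levels. These clones were singled out after their values were seen, and no test was made. Clones C, O and P, which had the most SOX2, had COL2A1 at 1117, 1287 and 651 CPM, against at most 284 CPM (clone G) in the others. They also had COL9A2 at 29.7, 36.9 and 9.12 CPM, against at most 5.58 CPM (clone Q) in the others. Clones N and Q, which had the most SOX5, were those with the most COMP. They were also highest in SOD2, the mitochondrial superoxide dismutase, at 103.4 and 51.4 CPM, and in the aldehyde oxidase AOX1, at 49.5 and 16.8 CPM. SOD2 and AOX1 were picked for rising with SOX5 at the smallest p, so their high levels in these clones follow in part from that choice.

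**Figure D4:**
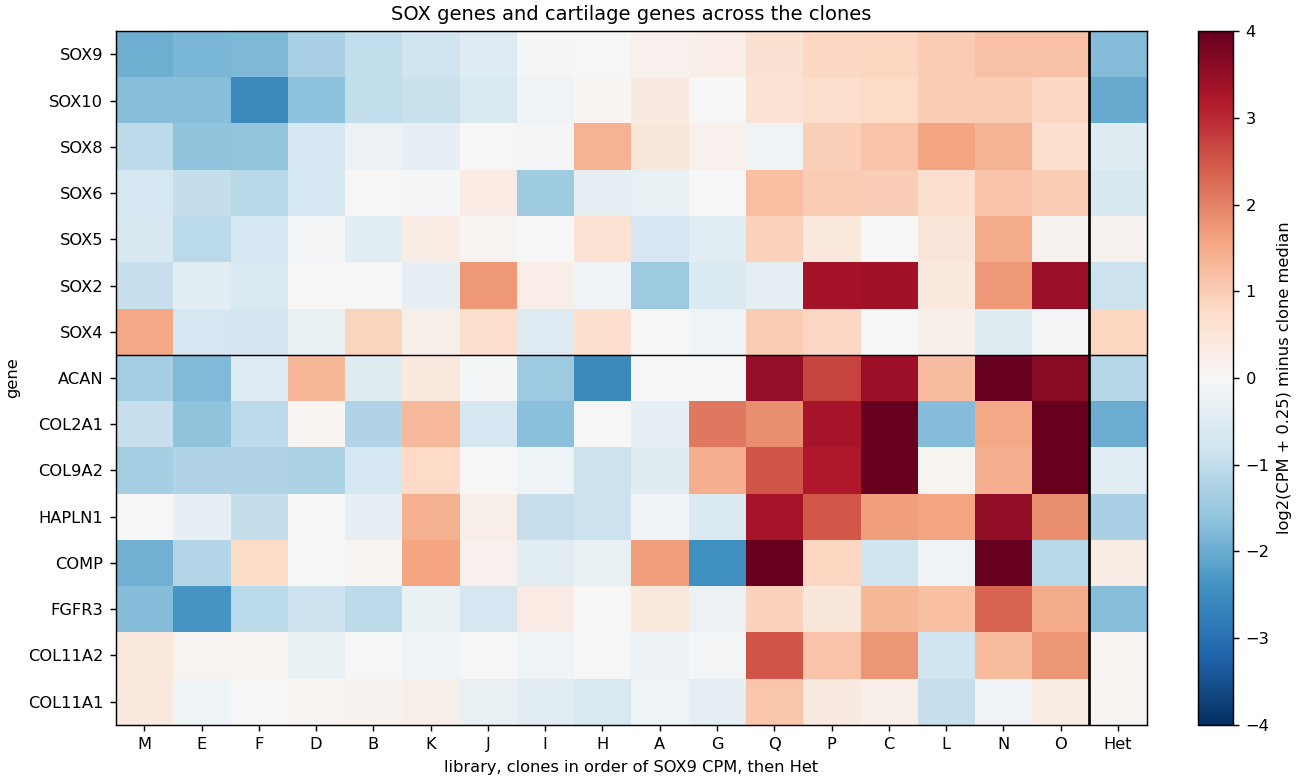
Log2(CPM + 0.25) minus the median of the clones for SOX genes (upper block) and cartilage genes (lower block); columns are clones in order of SOX9 with the heterogeneous population last, and the colour scale stops at 4 and -4. The cartilage genes are reddest in Q, P, C, N and O, with COL2A1 strongest in O (1287 CPM), C and P and COMP in N (56.3 CPM) and Q, while clone L is pale or blue for COL2A1.

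Genes of proliferation also moved with SOX9. All 15 of 15 listed genes of DNA replication and mitosis were called higher on SOX9, where 15.3% of all genes were. Their median slope was 1.01, with MKI67 at 1.17 ± 0.24 (edgeR adjusted p = 0.00257) and PCNA at 0.82 ± 0.15 (0.00145). None was called on SOX5 (5 positive slopes, median -0.03), on SOX6 (15 positive, median 0.57) or on SOX4 (0 positive, median -1.10). The mean log2 level of the list had an r of 0.751 with SOX9 (permutation p = 0.00081, adjusted over 54 relations 0.00437, rho = 0.841, and r = 0.677 without clones O and L). With this mean as a covariate, a fit chosen after the data were seen, 2062 genes were called on SOX9 in place of 3010. SOX5 (0.66 ± 0.12), SOX6 (0.84 ± 0.15) and SOX8 (1.09 ± 0.26) were still called on SOX9, while SOX2 (1.39 ± 0.54, adjusted p = 0.0788) was not. Of the 15 cartilage targets 8 were called in this fit. COL2A1 (1.11 ± 0.44, 0.0881) was no longer among them, and FMOD (0.56 ± 0.11, 0.00205) and COL11A2 (0.76 ± 0.24, 0.0392), not called without the covariate, were. In the same fit on SOX6, 9 of the 15 targets were called, and on SOX5 6. Over all genes, the covariate fits called 1259 of 11228 higher on SOX9, 808 of 11331 on SOX6 and 1724 of 11331 on SOX5. Without the covariate, 1707, 564 and 978 genes were called higher.

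Properties of the libraries also moved with the SOX genes, and their part in the slopes was not tested. The TMM factor, which corrects a library for a few very abundant genes, had an r of 0.782 with SOX9 (permutation p = 0.00029), 0.754 with SOX5 (0.00049) and 0.754 with SOX8 (0.00061). The share of reads on the 50 most abundant genes, 24.2% to 40.1% of a library, had an r of -0.792 with SOX9 (permutation p = 0.00018), and the share of reads outside genes, 18.8% to 26.8%, had one of 0.743 with SOX5 (0.00057). SOX9 also lay along the first principal component (r = 0.829, permutation p = 9e-05, 29.6% of the variance) and SOX5 along the second (r = 0.86, p = 1e-05, 20.8%). The components came from 11470 genes above 1 CPM in at least 1 clone, without the members and SOX10. The sign of each component was set so that its r with SOX9 is positive. None of these measures passed the adjusted threshold with SOX6 or SOX4. With library totals in place of TMM factors, the split of higher and lower calls moved from 1707 and 1303 to 3448 and 611 on SOX9, from 978 and 790 to 2434 and 324 on SOX5, and from 564 and 423 to 1131 and 349 on SOX6. On SOX5 the median slope of all genes then was 0.15 in place of 0.02. The members and cartilage targets called with TMM factors stayed called on the same side with library totals.

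**Figure D5:**
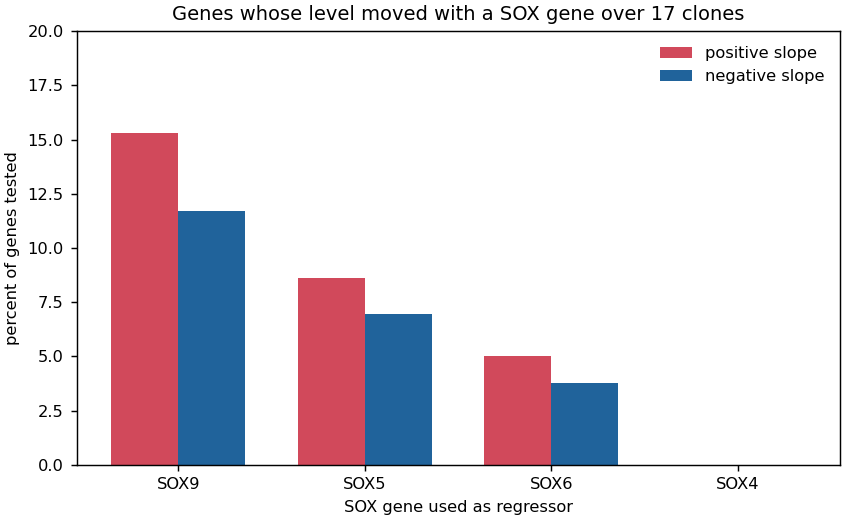
Percent of the genes tested (vertical axis, from 0) that were called with a positive (red) or a negative slope (blue) in the fit on each SOX gene (horizontal axis). The bars are 15.3% and 11.7% for SOX9, 8.62% and 6.96% for SOX5, 5.02% and 3.76% for SOX6, and 0% for SOX4.

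Among the single genes with the smallest p on SOX9, SOX10 came first (1.06 ± 0.08, edgeR adjusted p = 4.56e-07). It was followed by RTKN, which encodes a binding partner of the GTPase RhoA (0.64 ± 0.06), the ephrin EFNB2 (1.31 ± 0.14), FGFR3, TTLL12, the protein kinase PRKCA (0.38 ± 0.04), the laminin receptor subunit ITGA6 (0.97 ± 0.11) and the transcription factor NFATC1 (0.45 ± 0.05). Their adjusted p-values lay between 2.92e-05 and 5.57e-05. ITGA6 was 25.3 CPM in clone D and 333 CPM in clone O. On the negative side stood EML4 (-0.43 ± 0.04), DRAM1, a regulator of autophagy (-1.14 ± 0.12), KLHL7, OBSL1, SNAP47, the Wnt receptor FZD3 (-0.62 ± 0.07) and TUFT1 (-0.74 ± 0.09). DRAM1 was highest in clone E at 37.4 CPM and lowest in clone N at 1.96 CPM.

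On SOX5 the smallest p-values with a positive slope belonged to SOD2 (1.63 ± 0.12), AOX1 (3.53 ± 0.31) and the iron reductase CYBRD1 (0.998 ± 0.094), and with a negative slope to RBM38 (-1.05 ± 0.13), SP7 (-1.96 ± 0.25) and FADS3 (-0.73 ± 0.09). SP7, also called osterix, is required for osteoblast formation. It ranged from 5.74 CPM in clone N to 75.3 CPM in clone E, the clones with the most and the least SOX5. On SOX6 they were FRMD4B (1.38 ± 0.16), the laminin chain LAMB3 (1.56 ± 0.18) and AIF1L (1.13 ± 0.13), against PSMB8 (-0.87 ± 0.10) and PSME1 (-0.38 ± 0.05), both genes of the immunoproteasome, and MFSD12 (-0.56 ± 0.07).

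The genes most alike in pattern, by Pearson r of log2 levels over the 17 clones and given as a description, were SOX10, RTKN (0.949) and PRKCA (0.943) for SOX9. For SOX5 they were CCDC6 (0.96), NEK7 (0.95) and CYBRD1 (0.945), for SOX6 AIF1L (0.914), FRMD4B (0.903) and LAMB3 (0.903), and for SOX4 CADM4 (0.815), CISH (0.792) and PRSS35 (0.791).

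Of 23 listed partners and regulators of SOX9, 18 were tested. On SOX9 2 were called higher and 3 lower, where 27.0% of all genes were called. The counts were 1 and 2 on SOX5 (15.6% of all genes), 3 and 0 on SOX6 (8.78%) and none on SOX4. The BMP receptor BMPR1B rose with each gene of the trio, by 0.99 ± 0.16 on SOX9, 1.24 ± 0.40 on SOX5 and 1.33 ± 0.18 on SOX6. Its call on SOX5 was lost with no filter, with the heterogeneous library added, and without clone A, B, E, F, I, L, M, N, P or Q (adjusted p = 0.0514 to 0.148). CREBBP, a coactivator, rose by 0.18 ± 0.04 on SOX9 and 0.24 ± 0.05 on SOX6, and TRPS1 by 0.36 ± 0.10 on SOX6. TRPS1 was no longer called without clone A, C, E, F, N, O, P or Q (0.0502 to 0.104), nor CREBBP with the heterogeneous library added (0.16 on SOX9 and 0.0927 on SOX6). RUNX3 fell on SOX9 (-0.94 ± 0.25) and SOX5 (-1.79 ± 0.52), CTNNB1, which encodes β-catenin, and SMAD2 on SOX9 (-0.27 ± 0.08 and -0.13 ± 0.04), and RUNX2, the osteoblast factor, on SOX5 (-0.51 ± 0.12). With the proliferation covariate the calls on SOX9 of CREBBP (adjusted p = 0.0518), RUNX3 (0.121), CTNNB1 (slope -0.099, 0.459) and SMAD2 (0.173) were lost. With library totals SMAD2 had a slope of -0.027 (0.644) and RUNX2 on SOX5 one of -0.31 (0.0646). RUNX3 on SOX5 was lost without clone N (0.113) or Q (0.0764). None of the 3 listed targets of SOX4 and SOX11 (TEAD2, TUBB3 and DCX) was called in any of the fits. Of 12 pluripotency genes that work with SOX2, 6 had any reads and 2, KLF4 and MYC, passed the filter, and neither was called.

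Markers of other lineages were set beside the SOX genes. For each of these lists, the share of all genes called was 27.0% on SOX9, 15.6% on SOX5 and 8.78% on SOX6. Of 6 adipocyte markers, ADIPOQ (1.05 ± 0.23) and FABP4 (1.34 ± 0.31) rose on SOX9, whereas PPARG (-0.73 ± 0.15) and CEBPA (-0.51 ± 0.13), the regulators of adipocyte formation, fell. ADIPOQ rose and PPARG and CEBPA fell on SOX5 and on SOX6 as well, and FABP4 and LPL rose on SOX5. Without clone N the calls on SOX5 of ADIPOQ (adjusted p = 0.382), PPARG (0.146), CEBPA (0.125) and LPL (0.103) were lost, as was that of ADIPOQ without clone E (0.0532). PPARG on SOX5 was also lost without A, B, E, F, J, M, P or Q, with library totals, with the heterogeneous library added and with the proliferation covariate (0.052 to 0.111). CEBPA was lost on SOX6 without clone O, P or Q (0.0606 to 0.0716) and, with the covariate, on SOX9 (0.0783) and SOX6 (0.0511). Among osteoblast markers none was called on SOX9 or SOX6, and on SOX5 PHEX (1.84 ± 0.38) rose while SP7 and RUNX2 fell. In the list of mesenchymal stromal markers, 4 of 10 were called higher and 2 lower on SOX9, where 27.0% of all genes were called. PDGFRA (0.83 ± 0.12), CXCL12 (1.02 ± 0.16), NT5E (0.22 ± 0.08) and VCAM1 (1.54 ± 0.56) rose, and PRRX1 (-0.30 ± 0.08) and TWIST1 (-0.25 ± 0.07) fell. VCAM1 had 0 to 47 reads in the clones, with a median of 1, so its slope rests on few clones. NT5E lost its call in 12 of the fits that left out 1 clone (all but G, H, J, P and Q, 0.0523 to 0.113), VCAM1 in 9 (A, B, D, E, F, I, J, L and M, 0.0538 to 0.1), and both lost it with limma (0.0614 and 0.0815). VCAM1 was also not called with the heterogeneous library added (0.51), with no filter (0.0562), with DESeq2 size factors (0.0507) or with a pseudocount of 1 (0.0504). The calls of PRRX1 (0.288) and TWIST1 (0.081) were lost with the proliferation covariate. On SOX5 3 rose and 1 fell (without clone N, CXCL12 at 0.079 and PRRX1 at 0.0757 were not called), and on SOX6 PDGFRA alone was called. Of the tested chondrocyte markers, 3 of 5 rose on SOX9, 2 on SOX5 and 4 on SOX6. The Schwann list had 2 of 2 tested genes called on SOX9, SOX10 and S100B (0.78 ± 0.17), a gene also made by chondrocytes. The endothelial list had PECAM1 called on SOX9 (0.64 ± 0.18, at most 41 reads) and TEK on SOX5 (0.93 ± 0.29, at most 33 reads). PECAM1 had a slope of 0.095 (adjusted p = 0.795) with the proliferation covariate, and TEK was not called by limma (0.0638) or without clone E, F, G, N, P or Q (0.0501 to 0.207). Of 4 macrophage markers tested none was called.

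When each clone was set against the other 16, no SOX gene was called in any clone. In these 102 tests 5 had an unadjusted p under 0.05 by edgeR, and DESeq2 also called 0. Over all genes and clones 0.0461% of tests were called. The smallest adjusted p, 0.123, was that of SOX5 in clone N, at a log2 difference of 1.35 ± 0.41, in a clone where 0.749% of genes were called. SOX4 in clone M stood 1.52 ± 0.48 above the others (edgeR adjusted p = 0.815), with 0.0341% of genes called there. In such a test the single clone is assumed to vary as the others do, so that it has little power.

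The heterogeneous population had SOX9 at 2.98 CPM (48 reads), below 14 of the 17 clones, and SOX6 at 7.02 CPM (113 reads), below 12. SOX8 had 7 reads and SOX2 had 2. SOX5 stood at 19.1 CPM, above 11 clones, and SOX4 at 48.8 CPM, above 14. Every SOX gene with reads thus lay inside the range of the clones, as did most genes: 10.9% of the genes tested were below every clone in this library and 6.70% above every clone. In edgeR's test of the heterogeneous library against the clones, 1.25% of genes were called and none of the 6 SOX genes tested. The log2 difference was -1.84 ± 1.11 for SOX9 (adjusted p = 0.698), -0.82 ± 0.82 for SOX6 (0.814), 0.60 ± 0.64 for SOX4 (0.828) and 0.08 ± 0.56 for SOX5 (0.979). For SOX8 it was -1.08 ± 1.32 (0.848), and for SOX2 -3.55 ± 2.86 (0.761).

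The summed RNA of macrophage markers and that of proliferation genes in this single library lay outside the range of the clones. Of 13 macrophage markers with reads, 12 were above every clone, and their summed level was 245 CPM, against 12.7 to 101 CPM in the clones, with MARCO at 0. The summed level of the proliferation genes, 127 CPM, was below every clone (149 to 2321 CPM). Not every proliferation gene was below every clone by itself: PCNA had 273 reads here, against 245 to 1916 in the clones. Chondrocyte markers summed to 85.3 CPM (73.8 to 3382 CPM in clones) and mesenchymal stromal markers to 2398 CPM (1932 to 4246 CPM). The part of these differences in the SOX levels was not tested.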

How the data were processed

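Poly-adenylated RNA of 17 clones and 1 heterogeneous population was sequenced with short single-end reads. STAR (2.3.0e in the submitters' processing notes) placed them on bosTau7 and HTSeq tallied them per RefSeq gene, and the counts the authors deposited are these raw numbers. The 5 HTSeq tally lines stayed out of library sizes: reads outside genes were 18.8% to 26.8% of a file and ambiguous reads 0.164% to 0.192%. SOX12 is not among the gene symbols used here.

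Counts on genes came to 11484812 to 18458157 per clone. Levels are CPM by library total and log2(CPM + 0.25), with exact 95% Poisson intervals. The quasi-likelihood test of edgeR 4.0.16 under R 4.3.3 was used two-sided after TMM scaling and filterByExpr, with Benjamini-Hochberg adjustment over all genes tested. A regressor was the log2(CPM + 0.25) of the SOX gene by TMM library size, and the SE is the one implied by the test. Correlations used 100000 resamples. DESeq2 1.42.0 and limma 3.58.1 were alternatives, as were the scaling, the filter, the pseudocount, and leaving out each clone. Tables and plots were made in Python 3.11.15 with scipy 1.17.1, pandas 2.3.3, matplotlib 3.10.9 and numpy 2.4.6. The tests were checked on simulated counts. Apart from the changes put in, each simulated gene varied independently, so the check does not cover variation shared by many genes.

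Named genes are the 7 members, the 3 most alike by r for each fitted member, the 8 smallest p in each direction on SOX9 and 3 on SOX5 and SOX6, and list genes past the threshold or of large spread. Some genes that this rule or the lists name are not reported here. The members and the lists were chosen with earlier results of these data known. Sums of the SOX9 and SOX10 lines and the proliferation covariate were added after the data were seen. ARS-UCD2.0 served for names only. Gene sequences, coordinates and lengths were not used here.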

Additional observations from a re-analysis of the deposited data

How the results depend on the processing

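No paired analysis was possible because the clones carry letters and no replicate number links samples. Leaving out 1 clone at a time never removed clones C and O together. These were close in SOX2 (6.72 and 7.25 CPM) and COL2A1 (1117 and 1287 CPM). Apart from SOX9 with SOX4, the correlations kept their sign and a permutation p under 0.05 in all alternatives. SOX9 with SOX4 was 0.0245 as a rank correlation, 0.0367 with the SOX9 and SOX10 lines summed, and -0.165 to 0.287 with 1 clone left out. The slope on SOX5 called 2758 genes with library totals, 3146 with the proliferation covariate, and 646 to 1844 with 1 clone left out, in place of 1768 (646 without clone N, 1150 without Q). On SOX6 DESeq2 called 1600 in place of 987, and leaving out 1 clone gave 453 to 1300 (566 without E, 453 without F, 460 without P, 614 without Q). On SOX4 the count was 71 by DESeq2, 11 with the proliferation covariate, and 0 to 2 with 1 clone left out (2 without E and 2 without K). DESeq2 called 88 genes in the heterogeneous library in place of 149. With a pseudocount of 1 the SD was 0.557 for SOX8 and 1.04 for SOX2, the genes with fewest reads. The slope of SOX4 on SOX9 was -0.27 to 0.089 with 1 clone left out (0.089 without clone M) and 0.24 with the proliferation covariate, that of SOX9 on SOX4 -0.42 to 0.063 (0.063 without clone M) and 0.18, and SOX5 in the heterogeneous library -0.040 with library totals, none of them called. The call of COMP on SOX9 was lost with limma (adjusted p = 0.364), with the SOX9 and SOX10 lines summed (0.0526) and without clone A, B, D, E, H, I, J, M, N or Q (0.0501 to 0.198), and that on SOX6 with limma (0.261) and without D, E, F, H, M, N, P or Q (0.0516 to 0.106). The cause of these changes was not tested. Genes under about 10 reads, such as SOX8 and SOX2 in most clones, are limited by depth.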
